A study of Mus musculus with 4 samples.

Results

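A set of 40 genes that mark cells copying or dividing their DNA were followed in CD4 T cells of the mouse mesenteric lymph node. They were 40 of the 13314 genes in the deposited count table and were taken as a named list, split by the phase in which their products act. The S list holds 14 genes of DNA replication, the G2/M list holds 23 genes of chromosome condensation, the spindle and mitotic exit, and 3 cytoskeleton genes (Stmn1, Tubb5 and Tuba1b) belong to neither phase because resting cells also use them. All 40 were present in the table and all 40 had unique molecular identifiers (UMIs, tags that mark single captured transcripts) in the cells analysed. The cells came from male mice of 2 genotypes: Foxp3GFP mice, whose Foxp3 gene carries a GFP reporter, and Foxp3CNS1- mice, which lack CNS1, an enhancer inside Foxp3 that is needed when regulatory T cells arise outside the thymus. Mice were either kept germ-free or colonized 9 days earlier with the fecal microbiota of specific-pathogen-free (SPF) animals. For each of the 4 groups the mesenteric lymph nodes of 3 mice were pooled, equal numbers of GFP+ and GFP- CD4 T cells were sorted (50% each), and about 5000 cells were aimed for in 1 droplet library read from the 3′ end of transcripts. Each group is 1 library of pooled mice, so no test between groups was made, and library and group cannot be told apart in any value below. The sort also fixed the share of GFP+ cells, so levels over all cells describe this mix and not the lymph node.

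The cell cycle runs from a gap (G1) through DNA replication (S) and a second gap (G2) to mitosis (M). Replication genes are largely switched on by E2F factors as cells leave G1, whereas genes of G2 and mitosis are released later through a repressor complex, DREAM, and through MYB and FOXM1, which act at promoters with CHR and CCAAT elements. Resting T cells carry few of these transcripts. T cells that have met antigen divide repeatedly in the draining lymph node, and the mesenteric nodes drain the gut.

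Promoters of both lists are shown first, because the factors named above act at promoter elements. RefSeq windows from 250 bases before to 50 bases after the annotated start (build GRCm38) were matched for 32 of the 40 genes by symbol. Those of Ccna2, Ska1, Cdc25c, Stmn1, Pimreg, Tpx2, Esco2 and Pbk were not matched. The elements were searched on both strands, CHR as TTTGAA or TTCGAA, the CCAAT box as CCAAT, and the E2F element as TTTGGCGC, TTTCCCGC, TTTCGCGC or TTTGCCGC. TTCGAA reads the same on both strands and was counted once. E2F matches may overlap each other, as in Mcm6, or a CCAAT box, as in Mcm7. The 6 windows below run 5′ to 3′ on the gene's strand from 250 bases before to 30 after the start, and capitals mark every match. They were chosen among G2/M genes with CHR and CCAAT matches and S genes with E2F matches, as those with the most UMIs. These windows thus hold their elements by choice. Pcna, the S gene with the most UMIs (5617), had no E2F match and is not shown. Hmgb2 (chr8:57511593-57511872, plus strand), Cenpa (chr5:30666636-30666915, plus strand) and Top2a (chr11:99024160-99024439, minus strand) are G2/M genes with CHR and CCAAT matches. Mcm6 (chr1:128359676-128359955, minus strand), Pclaf (chr9:65890073-65890352, plus strand) and Mcm7 (chr5:138171854-138172133, minus strand) are S genes with E2F matches, and Mcm7 also holds a CHR match.
Hmgb2: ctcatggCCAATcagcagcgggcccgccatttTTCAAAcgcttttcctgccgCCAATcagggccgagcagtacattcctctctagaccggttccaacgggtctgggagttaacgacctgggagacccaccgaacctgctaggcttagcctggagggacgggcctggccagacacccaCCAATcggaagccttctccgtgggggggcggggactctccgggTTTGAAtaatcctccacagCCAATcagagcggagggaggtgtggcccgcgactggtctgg
Cenpa: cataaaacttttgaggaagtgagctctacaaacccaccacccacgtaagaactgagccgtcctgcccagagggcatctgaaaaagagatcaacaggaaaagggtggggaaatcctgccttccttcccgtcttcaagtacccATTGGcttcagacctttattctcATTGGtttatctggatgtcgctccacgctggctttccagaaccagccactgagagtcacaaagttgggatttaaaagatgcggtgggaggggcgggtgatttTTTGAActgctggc
Top2a: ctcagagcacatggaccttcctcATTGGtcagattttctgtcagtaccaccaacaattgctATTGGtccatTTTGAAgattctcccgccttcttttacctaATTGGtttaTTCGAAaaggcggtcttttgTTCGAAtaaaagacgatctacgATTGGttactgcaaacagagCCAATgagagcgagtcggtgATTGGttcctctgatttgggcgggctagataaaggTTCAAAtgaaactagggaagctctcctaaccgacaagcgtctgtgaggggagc
Mcm6: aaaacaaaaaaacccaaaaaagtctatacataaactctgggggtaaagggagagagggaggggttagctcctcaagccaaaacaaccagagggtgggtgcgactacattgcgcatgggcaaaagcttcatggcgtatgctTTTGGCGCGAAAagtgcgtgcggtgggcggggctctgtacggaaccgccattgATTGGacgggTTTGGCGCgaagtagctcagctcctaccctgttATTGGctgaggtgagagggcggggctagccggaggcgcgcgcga
Pclaf: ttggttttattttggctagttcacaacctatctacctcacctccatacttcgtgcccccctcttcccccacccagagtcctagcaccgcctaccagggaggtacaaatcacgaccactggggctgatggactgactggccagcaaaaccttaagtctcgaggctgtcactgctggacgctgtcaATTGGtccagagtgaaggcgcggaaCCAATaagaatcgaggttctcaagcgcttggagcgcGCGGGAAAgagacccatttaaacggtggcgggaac
Mcm7: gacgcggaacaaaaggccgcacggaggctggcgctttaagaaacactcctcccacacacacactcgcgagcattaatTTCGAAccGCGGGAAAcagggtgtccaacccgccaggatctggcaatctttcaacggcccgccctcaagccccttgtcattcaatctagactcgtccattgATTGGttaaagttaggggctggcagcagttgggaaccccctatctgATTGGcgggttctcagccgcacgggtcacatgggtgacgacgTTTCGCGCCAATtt

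A CHR match lay in 12 of the 17 G2/M windows (70.6%) and in 3 of the 13 S windows (23.1%), those of Mcm7, Mcm2 and E2f8. Of all 27025 genes with a window 19.4% held one, and 14.3% of the 10050 among them that were also counted did. The G2/M genes without one in this window were Nek2, Nusap1, Aunip, Birc5 and Ccnb1. E2F matches went the other way: 5 of 13 S windows held one (38.5%; Mcm3, Mcm5, Mcm6, Mcm7 and Pclaf) against 1 of 17 G2/M windows (5.88%; Cdk1) and 2.32% of all windows. CCAAT did not separate the lists, with 10 of 13 S windows (76.9%) and 14 of 17 G2/M windows (82.4%), against 37.9% of all. In 35 further S genes and 36 further G2/M genes, taken from widely used single-cell phase lists, the shares were alike: E2F in 9 of 23 windows of the S genes (39.1%) and in 3.13% of those of the G2/M genes, and CHR in 13.0% and in 23 of 32 (71.9%). A match is a string of letters and not a measured site.

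The 16948 cells that passed the authors' filters fell as 3979, 4030, 3533 and 5406 into the libraries of germ-free Foxp3GFP, colonized Foxp3GFP, germ-free Foxp3CNS1- and colonized Foxp3CNS1- mice, and values in 4 libraries are given in that order throughout. The libraries held 9360112 to 17929193 UMIs. The authors divided the cells into 10 clusters numbered 0 to 9. Cluster 8 held 640 cells (3.78% of cells and 10.3% of UMIs; 106, 174, 84 and 276 by library), with a median of 6716 UMIs per cell against 2540 outside it. T cell markers (Cd3e, Cd3d, Cd3g, Cd4 or Trac) had a UMI in 99.5% of cluster 8 cells. The 16 ratios of the S and the whole G2/M list over all cells and in cluster 8 given below stayed inside their intervals without the 30 cells with at least 3 UMIs of B and plasma cell markers. Of 16791 barcodes 157 (0.935%) occurred in more than 1 library, 14 of the cells in cluster 8. No doublets were called here.

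Cluster 8 was where both lists stood highest in every library. Levels are given in CPM (counts per 1000000 UMIs), the UMIs of a gene or list scaled to the UMIs of all genes in the same cells. Reads came from transcript ends, so levels are not divided by gene length. The S list summed to 2225, 2749, 2973 and 3265 CPM in cluster 8 and to 226, 291, 269 and 294 CPM outside it. The G2/M list is given without Hmgb2, a chromatin protein that over all cells had more UMIs (469 CPM) than the other 22 genes together (389 CPM). It summed to 2211, 3011, 2284 and 2908 CPM in cluster 8 and to 74.2, 112, 101 and 153 CPM outside. The authors made the clusters from these same transcripts, so the height of cluster 8 is a description and was not tested. Clusters 7 and 5 came next in the pooled levels, with cluster 5 above cluster 7 for G2/M in the germ-free Foxp3CNS1- library. In cluster 7 the S list reached 414, 1020, 503 and 1149 CPM, and the G2/M list 249, 706, 341 and 1475 CPM, with both colonized libraries above both germ-free ones. In cluster 5 the G2/M list stood at 174, 213, 392 and 325 CPM. Cluster 1 had the lowest pooled levels of both, 184 CPM for S and 36.2 CPM for G2/M.

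**Figure D1:**
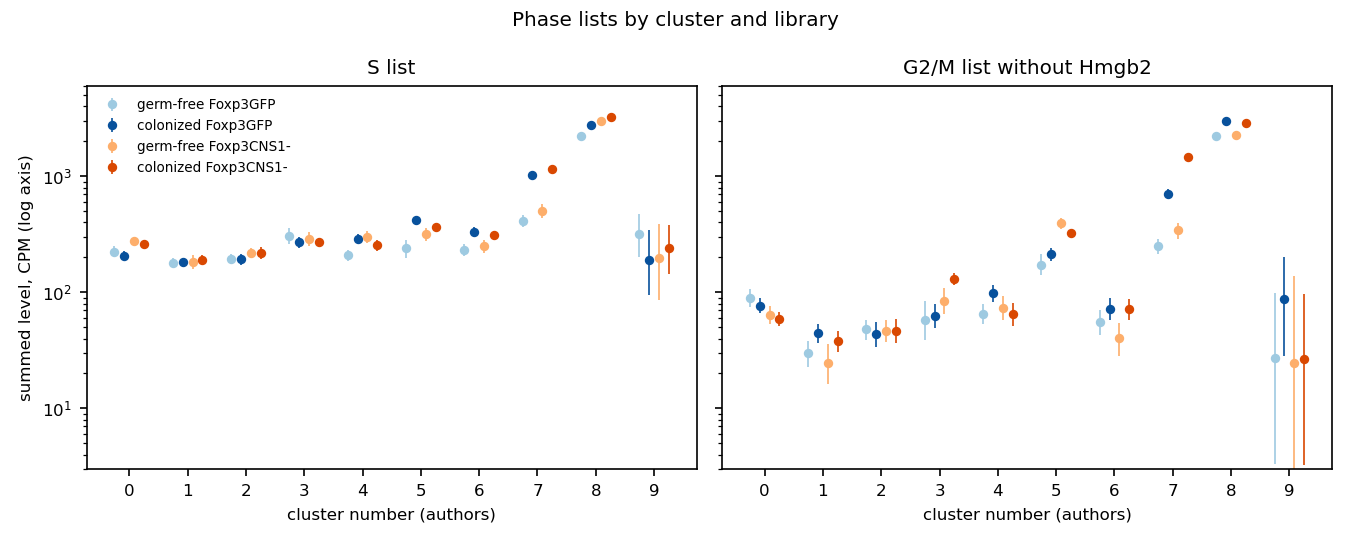
Summed level of the S list (left) and of the G2/M list without Hmgb2 (right) in each of the authors' 10 clusters, in CPM on a log axis. Points are the 4 libraries and bars are exact 95% Poisson intervals, which cover counting error only; cluster 8 is highest for both lists in all 4 libraries, followed by cluster 7 in the S panel.

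The share of a gene's UMIs that lay in cluster 8 ranged from 27.2% for Tubb5 to 91.4% for Bub1, the highest share of all 11047 genes with at least 50 UMIs. The median of those genes was 10.2%, close to the 10.3% of all UMIs that the cluster holds. The G2/M genes had a median of 81.4%, with 20 of 23 over 70%, and the S genes a median of 59.4%, with a range of 36.2% to 90.1%. The S genes are given by role. The helicase subunits Mcm2, Mcm3, Mcm5, Mcm6 and Mcm7, which are loaded on DNA already in G1, had 36.2% to 55.3% of their UMIs in the cluster. The genes of nucleotide synthesis (Rrm1 and Rrm2 of ribonucleotide reductase, Tyms and Tk1) had 56.0% to 84.1%. Pcna and Pclaf, the clamp and its partner, lay far apart, at 37.1% and 84.7%. Esco2, a cohesin acetyltransferase, E2f8, an atypical E2F repressor, and Lrr1, which helps unload the helicase, had 87.9% to 90.1%.

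**Figure D2:**
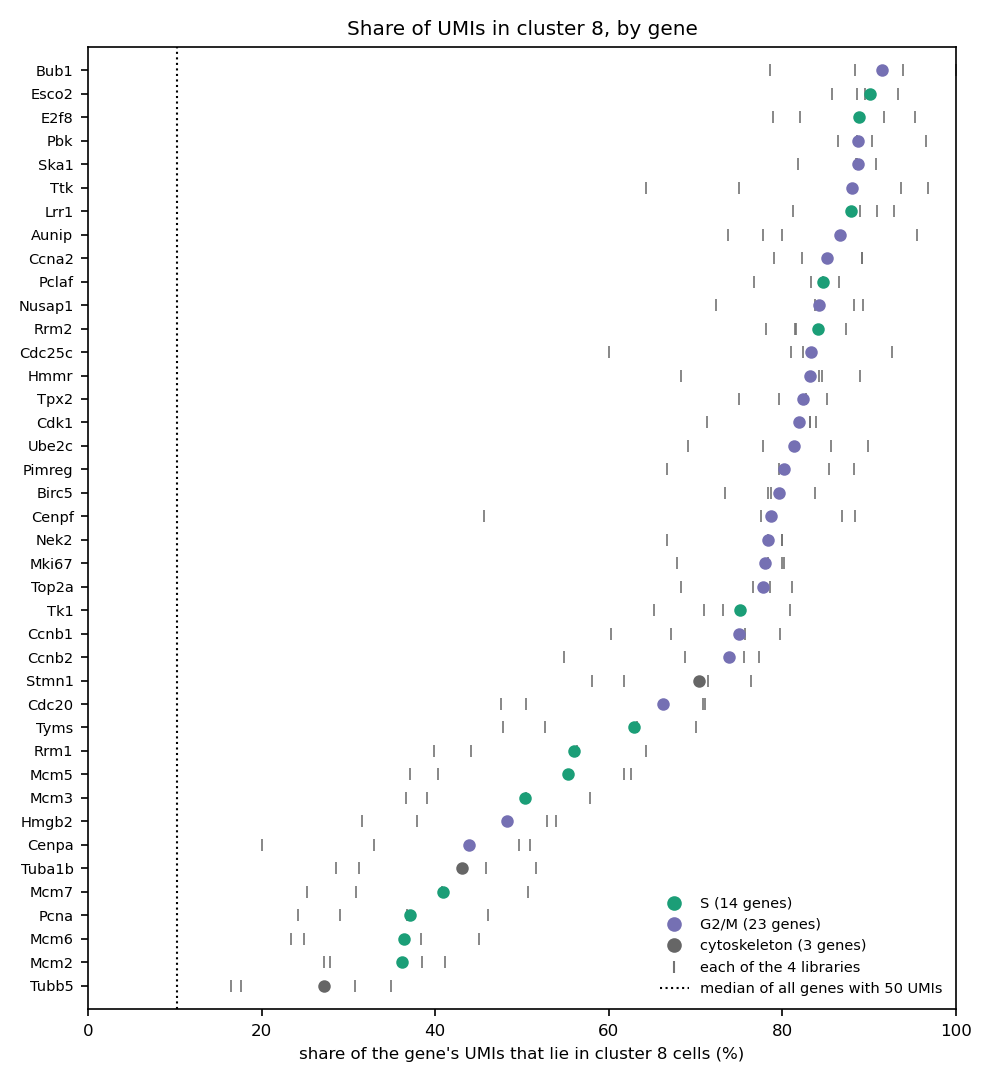
Share of each gene's UMIs that lay in cluster 8 cells (per cent), pooled over the libraries (points) and in each library (ticks). The dotted line is the median of all genes with at least 50 UMIs, 10.2%; Bub1 is at the top with 91.4% and Tubb5 at the bottom with 27.2%.

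Mcm6 was the most abundant helicase gene at 189, 233, 255 and 260 CPM in cluster 8, and 44.1, 49.8, 49.2 and 49.8 CPM outside. Mcm3 read 126, 179, 237 and 227 CPM in the cluster and 15.6, 23.4, 23.6 and 26.1 CPM outside. Pcna, the sliding clamp that holds the polymerases on DNA, read 301, 360, 506 and 417 CPM in the cluster and 67.3, 82.6, 78.8 and 76.7 CPM outside. In all 3 genes the lowest library in cluster 8 was still more than 2 times the highest outside it, yet the cluster held only 36.4%, 50.3% and 37.1% of their UMIs. Pclaf, which binds the clamp, differed from Pcna in this: it read 530, 565, 518 and 730 CPM in the cluster but only 7.58, 13.7, 10.0 and 17.8 CPM outside. Rrm2, the regulated subunit of ribonucleotide reductase, was like Pclaf (229, 386, 340 and 438 CPM against 4.59, 11.7, 4.89 and 10.0), with 84.1%. Rrm1, its partner subunit, had 56.0%.

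Hmgb2 had the highest level of all 40 genes in cluster 8, at 1831, 2275, 1867 and 2338 CPM, and also 214, 271, 259 and 313 CPM outside it, and 48.2% of its UMIs lay in the cluster. Cenpa, the histone variant of the centromere, had the lowest share of the G2/M genes, 43.9%, with 34.5, 40.1, 37.2 and 45.2 CPM outside. These were the only G2/M genes under 50%. Top2a, the topoisomerase that untangles sister chromatids, read 348, 391, 399 and 370 CPM in the cluster and 7.58, 12.1, 11.8 and 15.8 CPM outside. Mki67, which coats mitotic chromosomes, read 152, 144, 139 and 132 CPM in the cluster and 2.69, 5.31, 4.21 and 5.23 CPM outside. Both genes were nearly level across the cluster 8 cells of the 4 libraries. The mitotic cyclins were not: Ccnb1, which activates the kinase CDK1, read 60.1, 139, 83.7 and 139 CPM, and Ccnb2 read 138, 177, 80.2 and 197 CPM, both lower in the germ-free than in the colonized libraries. Cdk1 itself read 102, 173, 146 and 167 CPM. Cdc20 and Ube2c, the activator and an E2 enzyme of the anaphase-promoting complex that ends mitosis, read 83.9, 154, 102 and 157 CPM and 183, 327, 235 and 277 CPM. Birc5 (survivin), a part of the chromosomal passenger complex, read 290, 411, 299 and 408 CPM.

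The spindle genes Tpx2, Nusap1, Hmmr, Nek2 and Aunip had 78.4% to 86.6% of their UMIs in cluster 8. The kinetochore and checkpoint genes Bub1, Ttk, Ska1 and Cenpf had 78.7% to 91.4%. Bub1, a kinase of the spindle checkpoint, stood at 25.2, 24.1, 19.6 and 25.1 CPM in the cluster and at 0, 0.422, 0.341 and 0.258 CPM outside it, where the 0 of 3873 germ-free Foxp3GFP cells has an upper bound of 0.368 CPM. The cytoskeleton genes were set apart by their level in the other cells: Tubb5, a beta-tubulin, read 425, 421, 414 and 398 CPM outside and 1175, 1405, 1386 and 1357 CPM inside, and Tuba1b, an alpha-tubulin, read 212, 248, 229 and 231 CPM outside and 1189, 1578, 1626 and 1570 CPM inside. Stmn1, which destabilises microtubules, had 70.4% in the cluster.

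Both lists were spread unevenly over the cells of cluster 8. Of the 640 cells, 288 (45%) had at least 10 S UMIs and held 95.1% of the cluster's S UMIs, and 237 (37.0%) had at least 10 G2/M UMIs (again without Hmgb2) and held 97.6%. The median cell had 6 S UMIs and 1 G2/M UMI. With a lower limit of 3 UMIs, 282 cells (44.1%) had both lists, 117 (18.3%) S alone, 3 (0.469%) G2/M alone and 238 (37.2%) neither. Cells with neither made up 51.9%, 33.9%, 46.4% and 30.8% of the cluster by library, more in the germ-free libraries, and had fewer UMIs in all (median 3797.5, against 10889 in cells with both). After each cell was thinned to 1500 UMIs, 155 of 624 cells (24.8%) had both, 93 (14.9%) S alone, 46 (7.37%) G2/M alone and 330 (52.9%) neither. The limit of 3 UMIs was kept, so a cell with both lists can fall below it for 1 of them. The larger share with G2/M genes alone at equal depth is therefore not read here as a phase.

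The split between the phases was close to even when UMIs were summed. S genes made up 50.2%, 47.7%, 56.6% and 52.9% of the UMIs of both lists in cluster 8 (exact 95% intervals 48.4% to 51.9%, 46.7% to 48.8%, 54.7% to 58.4% and 52.1% to 53.7%). As deposited, the germ-free Foxp3CNS1- library thus had the highest S share and the colonized Foxp3GFP library the lowest, with intervals that do not overlap. After thinning to 1500 UMIs the shares were 45.2%, 46.6%, 54.1% and 51.3%, with the germ-free Foxp3GFP library lowest. The intervals of germ-free Foxp3CNS1- (49.4% to 58.7%) and colonized Foxp3GFP (43.7% to 49.6%) then overlapped. In single cells the split was wider: of the 315 cells with at least 10 UMIs of both lists together, 91 had more than 75% S UMIs, 54 had less than 25% and 170 lay between. Every interval here and below covers counting error only, and UMIs of 1 cell are not independent of each other.

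In clusters 7 and 5 a few cells held most of the G2/M UMIs. In cluster 7, 23 of 721 cells held 88.5% of the G2/M UMIs, and in cluster 5, 31 of 1693 cells held 68.3%. S UMIs were more spread: cells with at least 10 of them held 72.9% in cluster 7 and 32.3% in cluster 5. In the other clusters outside cluster 8, cells with at least 10 UMIs held 0 to 29.9% of the G2/M UMIs and 0 to 18.5% of the S UMIs. In clusters 1 and 2, which hold few such cells, 1.33% or less of the cells had at least 2 G2/M UMIs in each library, at a median of 2494 to 2856 UMIs per cell. Free RNA and low expression in those cells were not told apart. For S genes the same share was 9.43% to 12.1%, so that 2 S UMIs are not read here as a replicating cell. Cells with at least 10 UMIs are a range of a count and not a cell type.

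Within cluster 8, genes followed their own phase. Each gene's log-normalised level was correlated across cells, in each library, with the mean of the other genes of either list. All 14 S genes were closer to the S score on average, 12 of them in all 4 libraries, and 20 of 23 G2/M genes were closer to the G2/M score in all 4. The clearest were Cdc20 (mean Pearson's r 0.79 with G2/M and 0.30 with S), Cenpf (0.78 and 0.29) and, on the other side, Pcna (0.68 with S and 0.26 with G2/M). Pclaf sat on the line (0.82 with both). Aunip, an Aurora A partner placed in the G2/M list, was closer to S in all 4 libraries (0.39 against 0.23), and Pbk, a mitotic kinase, was even (0.56 with S and 0.53 with G2/M). Pairs within S had a mean r of 0.48, pairs within G2/M 0.52 and pairs across 0.31, and after thinning to 1500 UMIs these were 0.16, 0.22 and 0.11. The points share their libraries and their depth: the S score had r of 0.58 to 0.72 with a cell's log total UMIs, and the G2/M score 0.46 to 0.54.

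**Figure D3:**
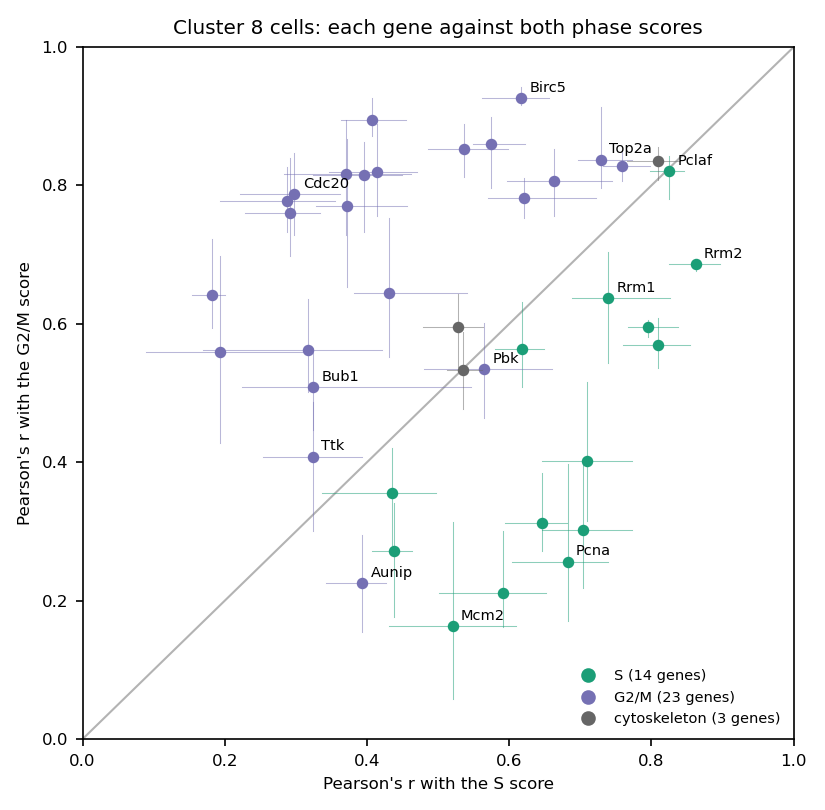
Correlation of each gene with the S score (x axis) and the G2/M score (y axis) over the 640 cells of cluster 8, as Pearson's r; the gene itself is left out of the score. Points are means of the 4 libraries and lines span the lowest to the highest library; S genes lie below the diagonal, G2/M genes above it except Aunip and Pbk, and Pclaf on it.

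Among 5966 other genes detected in at least 10% of cluster 8 cells, those closest to the S score were Lig1 (mean r 0.78 over 4 libraries), a DNA ligase, Gmnn (0.77), which blocks helicase reloading, Asf1b (0.76), a histone chaperone, and the histone gene Hist1h2ap (0.72). Slbp, Dut, Spc24 and Tcf19 followed with 0.70, 0.69, 0.69 and 0.68. Closest to G2/M were Cdca8 (0.86), Cdca3 (0.86), Cks2 (0.82), Hist1h2ap again (0.82), Prc1 (0.80), Lockd (0.78), Cenpe (0.78) and Spc24 (0.78). Hist1h2ap and Spc24 were thus near both scores. Histone genes are a multigene family, so reads of near-identical copies may be shared.

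Colonized libraries had higher levels of both lists than germ-free ones in both genotypes. Over all cells the S list read 359 CPM in germ-free and 580 CPM in colonized Foxp3GFP cells, a log2 ratio of 0.69 (95% interval 0.64 to 0.75), and 431 and 697 CPM in Foxp3CNS1- cells, also 0.69 (0.64 to 0.75). The G2/M list without Hmgb2 read 216 and 453 CPM (1.07, 1.0 to 1.14) and 232 and 526 CPM (1.18, 1.12 to 1.25). The intervals of the lists do not overlap in either genotype: the G2/M genes differed more than the S genes. In Foxp3GFP cells 28 of the 37 genes with at least 50 UMIs were more than 1.5-fold higher in the colonized library, where 4.65% of all 9990 such genes were, and in Foxp3CNS1- cells 33 of 40 were, against 3.8%. No gene of the list was lower by that much, against 3.97% and 4.69% of all genes. The median log2 ratio was 0.93 and 1.10 for these genes and -0.01 and -0.04 for all genes.

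**Figure D4:**
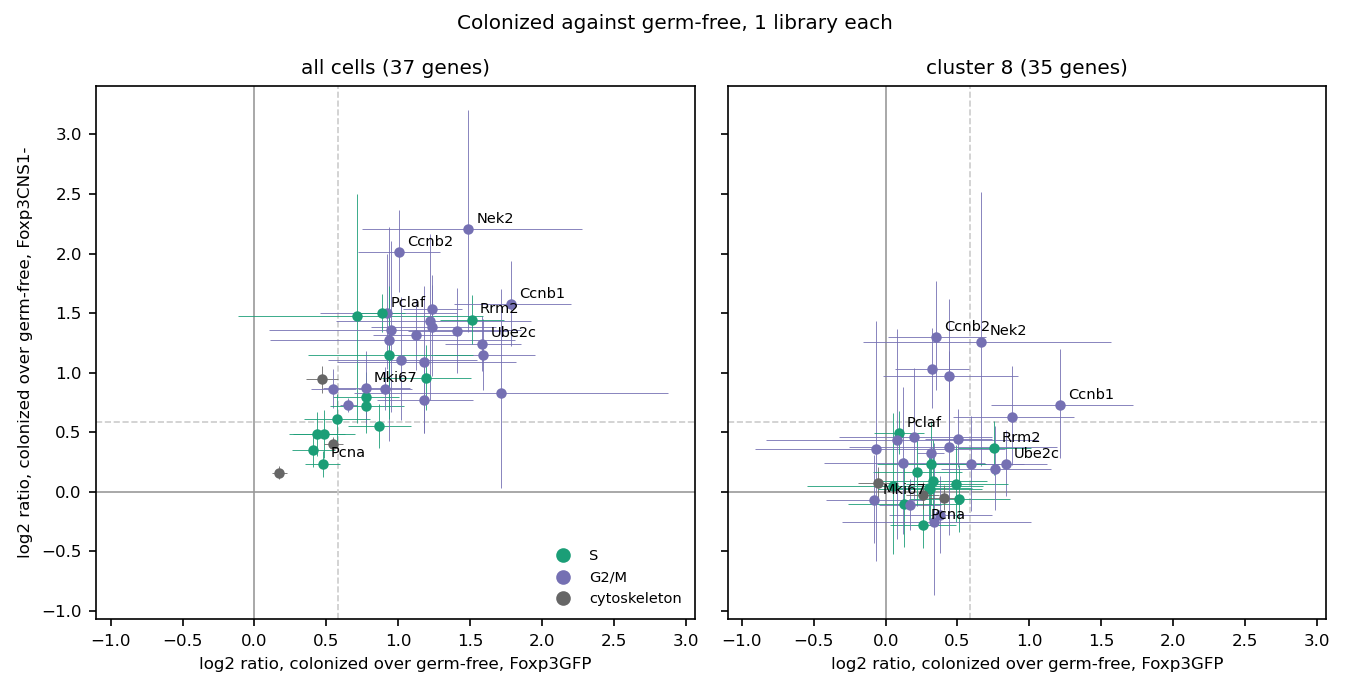
Log2 ratio of colonized over germ-free levels in Foxp3GFP (x axis) and Foxp3CNS1- (y axis) cells, for all cells (left) and cluster 8 alone (right). Lines are exact 95% counting intervals and dashed lines mark 1.5-fold; over all cells every gene lies above 0 on both axes, and in cluster 8 the points gather nearer to 0.

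Ccnb1 read 5.96, 20.5, 8.33 and 24.8 CPM over all cells (log2 ratios 1.79 and 1.57), Ube2c 14.2, 42.7, 20.4 and 48.3 CPM (1.59 and 1.24) and Birc5 24.5, 57.7, 24.5 and 70.7 CPM (1.24 and 1.53). In each of them both colonized libraries were above both germ-free ones. Ccnb2 had unlike ratios in the genotypes, with a log2 ratio of 1.0 (0.72 to 1.29) in Foxp3GFP and 2.01 (1.68 to 2.36) in Foxp3CNS1- cells, from 13.4, 26.9, 8.76 and 35.4 CPM. Nek2, a kinase of centrosome separation with few UMIs, read 1.86, 5.21, 1.28 and 5.91 CPM (1.48 and 2.21). The Ccnb2 gap between genotypes has no replicate and was not tested. Of the S genes Rrm2 stood out (19.5, 55.7, 25 and 68.1 CPM; 1.51 and 1.45), and Pclaf read 42.3, 78.4, 40.5 and 114 CPM (0.89 and 1.5). Of the helicase genes Mcm3 had 0.87 and 0.55, Mcm5 0.57 and 0.61, and Mcm7 0.43 and 0.48. Mcm6 read 53.7, 71.3, 61.5 and 78.3 CPM (0.41 and 0.35) and Mcm2 26.1, 36.4, 29.8 and 41.6 CPM (0.48 and 0.48). Pcna had 0.48 and 0.24, and Tubb5, the gene closest to level, 0.17 and 0.16 (475, 536, 472 and 528 CPM).

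Cluster 8 made up 2.66%, 4.32%, 2.38% and 5.11% of the cells by library, a cluster made from these genes too, so those shares stand only beside the levels. Cells with at least 10 G2/M UMIs numbered 41, 90, 31 and 142, or 1.03%, 2.23%, 0.877% and 2.63% of each library (exact binomial intervals 0.740% to 1.40%, 1.80% to 2.74%, 0.597% to 1.24% and 2.22% to 3.09%). Cells with at least 10 S UMIs numbered 44, 111, 50 and 174. In both counts the colonized libraries were above the germ-free ones, and the rich cells were deep, with medians of 10826 and 10392 UMIs. When the clusters were given the same weights in each library, the log2 ratios of the S list fell to 0.33 and 0.14 and those of the whole G2/M list, 0.83 and 0.93 as deposited, to 0.37 and 0.31. The libraries also differed in depth (median 2399, 2832, 2286 and 2763.5 UMIs per cell). After thinning to 1500 UMIs the S list had 0.34 and 0.37, and the whole G2/M list 0.54 and 0.47. Thinning also gives every cell the same weight. Equal weight per cell without thinning lowered these ratios too, and depth and weight were not told apart. The share of cells with at least 2 G2/M UMIs was 2.54%, 4.57%, 2.26% and 5.60% as deposited and 1.47%, 2.49%, 1.40% and 3.15% after thinning.

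Inside cluster 8 the list ratios as deposited were smaller than over all cells, but not without the deepest cells. The S list had a log2 ratio of 0.30 (0.22 to 0.39) in Foxp3GFP and 0.13 (0.059 to 0.21) in Foxp3CNS1- cells, and the whole G2/M list 0.39 (0.33 to 0.45) and 0.34 (0.27 to 0.40). Without the deep cells, those past the 98th percentile of UMIs, the S list had 0.82 and 1.03 in cluster 8 against 0.46 and 0.58 over all cells, and the whole G2/M list 1.16 and 0.86 against 0.77 and 0.75. That cut was set in each library over all cells. Cells with at least 10 G2/M or S UMIs were deep (medians of 10826 and 10392 UMIs), so the cut can take them out. How many cluster 8 cells each library lost was not counted. After thinning, the S list in Foxp3GFP had 0.50 in cluster 8 against 0.34 over all cells. Of the genes with at least 50 UMIs, 7 of 35 and 6 of 39 were past 1.5-fold higher, against 6.52% and 8.81% of all genes, and none was past it in the other direction (5.21% and 5.36%). Of these 1 was an S gene, Rrm2 in Foxp3GFP (0.75), and the rest were G2/M genes. Ccnb1 (1.21 and 0.73), Cdc20 (0.88 and 0.63) and Nek2 (0.66 and 1.26) were past it in both genotypes. Cenpa had 0.32 and 1.03, and Ube2c 0.83 and 0.23. Mki67 had -0.08 and -0.07, with intervals of -0.41 to 0.26 and -0.43 to 0.31. Outside cluster 8 the S list had 0.37 and 0.13 and the G2/M list without Hmgb2 0.60 in both genotypes, and 11 of 24 and 9 of 28 genes were past 1.5-fold (3.63% and 2.47% of all genes) and none past it lower (3.62% and 4.65%). Of the 744, 1332, 886 and 2367 G2/M UMIs there (without Hmgb2), cluster 7 held 162, 426, 154 and 638. Its cells with at least 10 such UMIs numbered 3, 10, 3 and 7, so the ratio is not a level shared by all cells outside cluster 8.

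The wider lists moved less. Over all cells 9 and 10 of the 35 other S genes were past 1.5-fold higher in the colonized library of Foxp3GFP and Foxp3CNS1- mice (medians 0.43 and 0.45), and 17 of 32 and 16 of 33 of the other G2/M genes (0.66 and 0.58), against the same 4.65% and 3.8% of all genes. Smc4, a condensin subunit, and Jpt1 went the other way, with -0.46 and -0.31, and with -0.18 and -0.06. Genes of G1 control had 2 of 16 in both (0.14 and 0.13): Ccnd2, the D-type cyclin with the most UMIs, had -0.15 and -0.02. Of the CDK inhibitors and quiescence genes 2 and 1 of 13 were past it (-0.18 and -0.12). Among those Foxp1, which helps keep naive T cells at rest, had -0.53 and -0.40. Klf2, a factor of naive T cell traffic and rest, had -0.12 and -0.12, and Btg1 -0.07 and -0.18. Slfn2 went the other way, with 0.24 and 0.11. Of the 13 genes 4 and 6 were higher in the colonized library, and the highest ratios were 1.79 and 2.21. None of these 4 lists had a gene past 1.5-fold lower over all cells.

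Over all cells as deposited, the list ratios between the genotypes were smaller than those between the microbiota groups. The 4 libraries are the same as above, so these values are not independent of the colonization ratios. Over all cells the S list had a log2 ratio of Foxp3CNS1- over Foxp3GFP of 0.26 (0.20 to 0.33) for the germ-free pair of libraries and 0.27 (0.22 to 0.31) for the colonized pair, and the whole G2/M list 0.13 (0.072 to 0.18) and 0.22 (0.18 to 0.25). After thinning, the germ-free values were 0.17 for S and 0.26 for G2/M. In cluster 8 the S list had 0.42 (0.32 to 0.52) and 0.25 (0.19 to 0.30), while the G2/M list had 0.04 (-0.04 to 0.12) and -0.01 (-0.05 to 0.03). Without the deep cells the S list there had 0.11 and 0.32, and the G2/M list -0.10 and -0.39. In the germ-free cells of cluster 8, Mcm3 (0.91), Pcna (0.75) and Mcm7 (0.60) were past 1.5-fold higher in Foxp3CNS1-, 3 of 31 genes against 2.95% of all. Ccnb2 (-0.79), Cenpa (-0.70) and Cenpf (-0.68, interval -1.41 to 0.02) were past it lower, against 4.65%. In colonized cells of the cluster only Aunip (0.96) and Pimreg (0.61), a regulator of the metaphase to anaphase step, were past it, 2 of 40 against 3.55%, and none was lower (2.98%). Over all cells 3 of 31 genes were past it higher in germ-free (2.92% of all) and 1 lower (1.24%; Ccnb2, -0.61). In colonized libraries 2 of 40 were higher (1.77%), Pimreg (0.91) and Aunip (0.87), and none lower (1.27%).

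Outside cluster 8 the G2/M genes had the higher ratios of the lists. The whole G2/M list had 0.32 (0.25 to 0.39) in the germ-free and 0.28 (0.23 to 0.34) in the colonized pair. In the germ-free pair its interval overlaps that of the S list. The G2/M list without Hmgb2 was higher in Foxp3CNS1- by 0.44 in both pairs (germ-free 0.30 to 0.58, colonized 0.35 to 0.54), and the S list by 0.25 (0.17 to 0.33) and 0.02 (-0.05 to 0.08). Of these G2/M UMIs cluster 5 held 93 of 744 in germ-free Foxp3GFP and 326 of 886 in germ-free Foxp3CNS1- cells. In the colonized pair it held 255 of 1332 and 908 of 2367. Cluster 5 cells with at least 10 such UMIs numbered 1, 5, 3 and 22 by library. How far the ratios rest on those few cells was not tested. Ube2c (2.19, 4.89, 6.71 and 12.5 CPM) and Nusap1 (1.20, 2.61, 4.43 and 4.84 CPM), a spindle microtubule protein, had log2 ratios of 1.61 and 1.35, and of 1.89 and 0.89. Both Foxp3CNS1- libraries were above both Foxp3GFP libraries in these genes. The order rests on few cells: outside cluster 8 the libraries together held 332 UMIs of Ube2c in 120 cells and 157 UMIs of Nusap1 in 76 cells. Among germ-free cells 7 of 24 genes were past 1.5-fold higher (3.32% of all) and none lower (1.28%), and among colonized cells 6 of 28 (2.06%) and none lower (1.19%).

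Cells with a Foxp3 UMI, 3118 of 16948 (18.4%), were compared with the rest inside each library, which gives 4 pairs of sums and a test by edgeR's quasi-likelihood test with the library as a block and Benjamini-Hochberg adjustment over all genes. A missing Foxp3 UMI does not show that a cell lacks the transcript at this depth. Over all cells none of the 40 genes was called higher (10.5% of 10285 genes were) and 2 were called lower (7.92%), both tubulins. Tuba1b read 292, 368, 309 and 305 CPM with and 273, 416, 314 and 441 CPM without a Foxp3 UMI; edgeR's quasi-likelihood test with Benjamini-Hochberg adjustment gave a log2 difference of -0.24 (SE 0.06, adjusted p = 0.00361). It was lower with a Foxp3 UMI in 3 of 4 libraries. Tubb5 read 465, 511, 469 and 452 CPM with and 478, 544, 473 and 548 CPM without, lower in 4 of 4 libraries; the same edgeR test gave -0.17 (SE 0.04, adjusted p = 0.00228). At an unadjusted p under 0.05, 1 gene was higher (Ska1, a kinetochore protein) and 3 lower, and DESeq2 called none higher and 1 lower.

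The direction of the phase lists differed between libraries. The S list read 521, 578, 465 and 497 CPM in cells with and 322, 581, 423 and 749 CPM in cells without a Foxp3 UMI, and the G2/M list without Hmgb2 291, 507, 371 and 414 CPM with and 199, 436, 201 and 556 CPM without. G2/M was thus higher with Foxp3 in 3 libraries and lower in the colonized Foxp3CNS1- library. Without that library edgeR's quasi-likelihood test called 4 genes higher (Cenpf, Nusap1, Hmgb2 and Top2a) and none lower, and without the germ-free Foxp3GFP library it called 9 lower. Requiring at least 2 Foxp3 UMIs gave 9 genes called higher and none lower, among them Cenpf (1.12), Top2a (0.79) and Mki67 (0.80). Thinning to 1500 UMIs before Foxp3 status was set gave the opposite, with none higher and 13 lower, among them Ube2c (-2.28), Pclaf (-2.09), Birc5 (-1.64) and Mki67 (-1.39). The share of cells with at least 2 G2/M UMIs turned in the same way: 4.72%, 5.69%, 2.84% and 5.49% with against 2.12%, 4.27%, 2.16% and 5.63% without a Foxp3 UMI as deposited, and 1.09%, 1.42%, 0.904% and 1.61% against 1.52%, 2.65%, 1.46% and 3.36% after thinning. Depth moved with it: among cluster 8 cells 21.7%, 27.0%, 14.3% and 15.9% had a Foxp3 UMI, and outside it 15.8%, 20.7%, 16.0% and 20.1%, but at 1500 UMIs per cell the pooled shares were 6.41% and 11.8%. The part of depth in these calls was not tested further. As a level, Foxp3 read 47.6, 55.1, 30.3 and 30.8 CPM in cluster 8 and 80.5, 100.4, 90.2 and 98.5 CPM outside it.

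**Figure D5:**
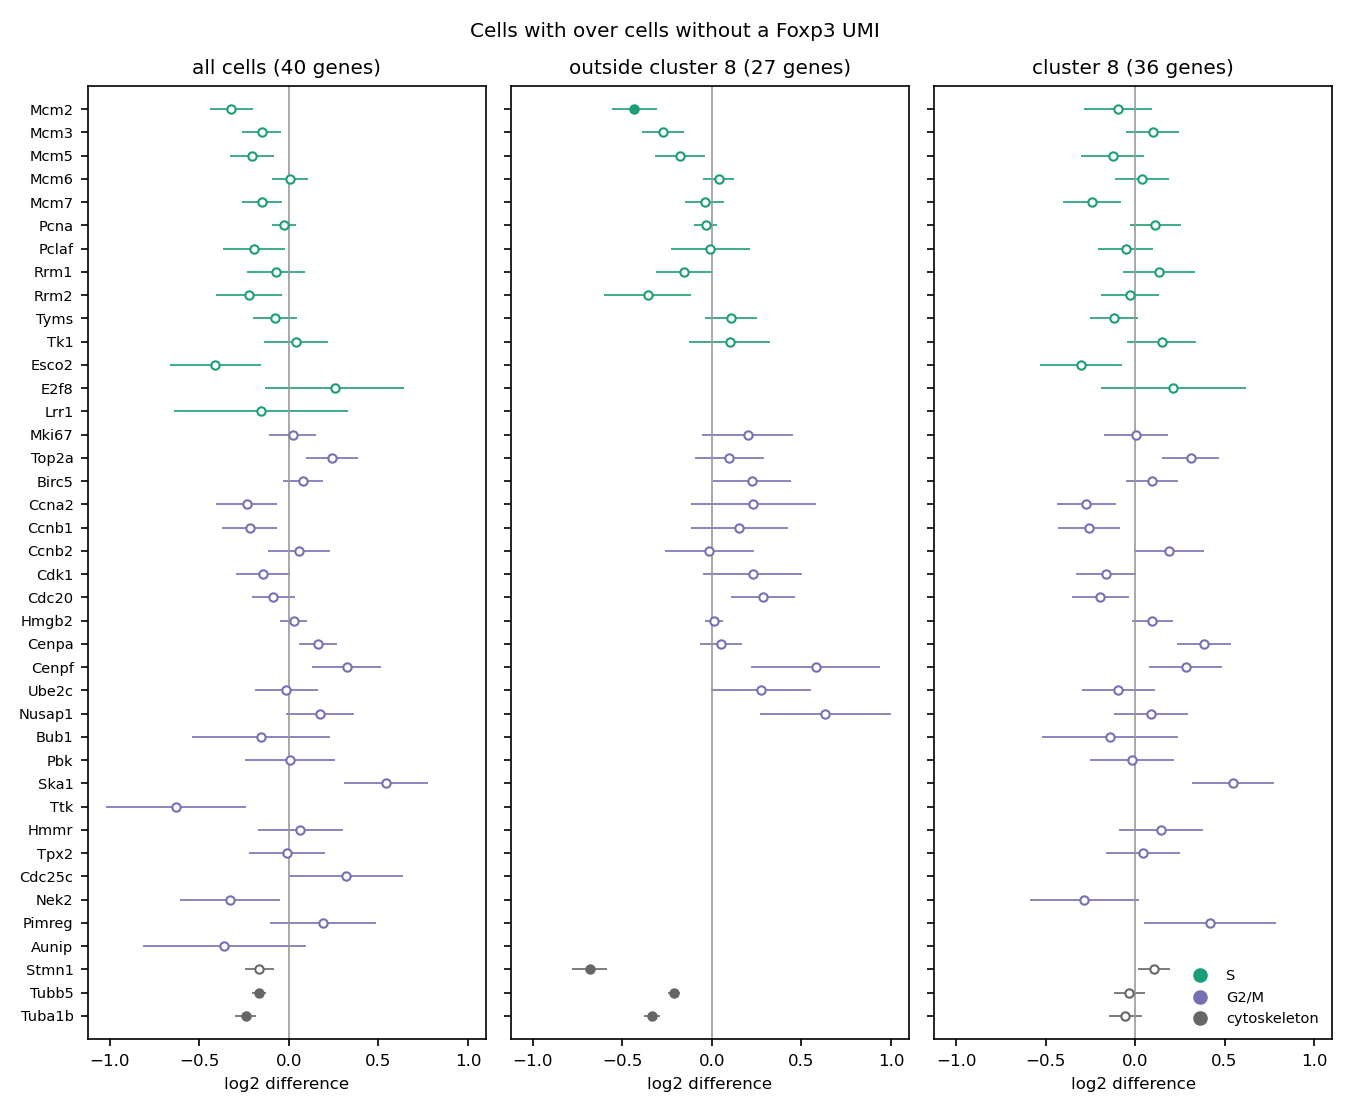
Log2 difference between cells with and without a Foxp3 UMI for all cells, outside cluster 8 and in cluster 8, from edgeR's quasi-likelihood fit on 4 libraries; bars are 1 SE and filled points have an adjusted p under 0.05. Only Tuba1b and Tubb5 are filled over all cells, and Stmn1, Tubb5, Tuba1b and Mcm2 outside cluster 8.

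Outside cluster 8 the cytoskeleton genes were lower in cells with a Foxp3 UMI. Of 27 genes fitted none was called higher (10.9% of all) and 4 were called lower (9.57%). Stmn1 read 40.2, 29.7, 26.9 and 29.6 CPM with and 45.9, 49.4, 39.0 and 52.4 CPM without, lower in 4 of 4 libraries; edgeR's quasi-likelihood test with Benjamini-Hochberg adjustment gave -0.68 (SE 0.10, adjusted p = 3.5e-07). The same edgeR test gave -0.34 (SE 0.05, adjusted p = 1.94e-07) for Tuba1b and -0.21 (SE 0.04, adjusted p = 8.11e-06) for Tubb5. Both tubulins were lower with a Foxp3 UMI in 4 of 4 libraries. Mcm2 was the only replication gene among the calls, at -0.43 (SE 0.12, adjusted p = 0.00868 by the same edgeR test), from 17.9, 26.4, 17.5 and 18.1 CPM with and 20.6, 25.1, 24.3 and 31.1 CPM without, lower in 3 of 4 libraries. At an unadjusted p under 0.05 none was higher and 5 were lower, and DESeq2 called none higher and 3 lower. In cluster 8, with 36 genes fitted and 12 to 47 cells with a Foxp3 UMI per library, edgeR's quasi-likelihood test called none higher (1.2% of all genes) and none lower (0.294%), and DESeq2 also called none. Cenpa (0.38, SE 0.15) and Ska1 (0.55, SE 0.23) were higher at an unadjusted p under 0.05, and after thinning Hmgb2 (-1.06) and Pclaf (-1.98) were called lower.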

How the data were processed

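The deposited table held raw UMI counts for 17478 cells and 13314 genes, with a cell table that named library, cluster and filter state for 17251. Per the submitters' processing notes the authors used Cell Ranger, Scanpy 1.5.1 and mm10; no source used here states their filters or clustering settings. The 16948 cells marked as kept by the authors were analysed, with the deposited counts as given; 303 cells removed by the authors, 227 cells in no row of the cell table and 4 columns of the cell table were not used in comparisons. Libraries were grouped by the labels, 1 library per group.

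UMIs were summed over cells and expressed as CPM with exact Poisson 95% intervals (Python 3.11.15, numpy 2.4.6, scipy 1.17.1, pandas 2.3.3, matplotlib 3.10.9). Ratios between libraries were given with exact conditional (Clopper-Pearson) intervals where a gene reached 50 UMIs in the library pair, and 1.5-fold was the size rule. Shares of cells had Clopper-Pearson intervals. Thinning to 1500 UMIs per cell left out 452, 181, 391 and 261 cells. Cells with and without a Foxp3 UMI were compared on 8 sums (4 libraries, 2 each) with edgeR 4.0.16 (R 4.3.3): TMM, filterByExpr with a minimum count of 10, library block, Benjamini-Hochberg adjustment over all genes, threshold 0.05. DESeq2 1.42.0 was an alternative. Nothing in the labels says that the libraries are replicates of each other: they are 4 different groups that serve as blocks. The block takes up level differences between the libraries. These p-values therefore set the difference by Foxp3 UMI against its spread over 4 libraries of unlike genotype and microbiota. The fit was tested on simulated data: of 200 altered genes (2-fold) edgeR recovered 90.5% over all cells, 91% outside cluster 8 and 82.5% in it (10296, 10036 and 4734 genes). False calls numbered 6, 10 and 7. The altered genes had at least 200 expected UMIs, 1 dispersion for all and the same change in every library. Recovery of genes with fewer UMIs, or with changes that differ between libraries, was not tested.

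The 40 genes were all named, and further genes by fixed lists (up to 4 examples a list with the most UMIs) and by highest correlation with a phase score (8 a list). The genes, lists and tests were chosen with earlier results of these data known. Promoter windows came from RefSeq tables. Alternatives were thinning, equal weight per cell, leaving out deep cells, list genes, clusters or libraries, a common cluster mix, other filters, other Foxp3 limits and no library block. Levels of some marker lists are not reported here.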

Additional observations from a re-analysis of the deposited data

Results flagged for a closer look

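Pcna was the only gene whose colonization ratio in cluster 8 had opposite signs in the genotypes with both counting intervals clear of 0. It was higher in the colonized library in Foxp3GFP cells (log2 ratio 0.26, interval 0.03 to 0.49) and lower in Foxp3CNS1- cells (-0.28, -0.47 to -0.08), a difference of -0.54. With 1 library in each group that difference was not tested. Its levels in cluster 8 were 301 and 360 CPM in Foxp3GFP, and 506 and 417 CPM in Foxp3CNS1- cells.

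Cells outside the comparisons also carried phase transcripts. The 303 cells removed by the authors had 450 CPM of the S list and 303 CPM of the G2/M list without Hmgb2, where 3 UMIs correspond to 3.46 CPM. The 227 cells in no row of the cell table had 410 CPM and 112 CPM, where 3 UMIs correspond to 18.6 CPM. The analysed cells together had 548 and 389 CPM. Adding the removed cells back left all 8 list ratios over all cells inside their intervals.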

How the results depend on the processing

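Of the list ratios, 2 near 0 changed sign, both G2/M in cluster 8 between genotypes (germ-free, without deep cells; colonized, without B and plasma cell marked cells, -0.01 to 0.0013). Values are log2 ratios of the S and the whole G2/M list. Colonized over germ-free, all cells, as S and G2/M in Foxp3GFP and then in Foxp3CNS1- (0.69, 0.83, 0.69, 0.93): thinned to 1500 UMIs 0.34, 0.54, 0.37, 0.47; equal weight per cell 0.39, 0.56, 0.38, 0.55; leaving out deep cells, those past the 98th UMI percentile, 0.46, 0.77, 0.58, 0.75; median of the genes 0.77, 1.18, 0.76, 1.24; S without Pcna 0.75, 0.81; G2/M without Hmgb2 1.07, 1.18; without cluster 8 0.37, 0.41, 0.13, 0.37; same cluster mix 0.33, 0.37, 0.14, 0.31. In cluster 8 (0.30, 0.39, 0.13, 0.34), thinning gave 0.50 and 0.47 in Foxp3GFP and 0.26 for S in Foxp3CNS1-, equal weight 0.58 for G2/M in Foxp3GFP and 0.25 and 0.42 in Foxp3CNS1-, and leaving out the deep cells 0.82, 1.16, 1.03, 0.86.

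Foxp3CNS1- over Foxp3GFP, germ-free, all cells (0.26, 0.13): thinned 0.17, 0.26; equal weight 0.20 for G2/M; without deep cells 0.18, 0.19; without cluster 8 0.32 for G2/M. In cluster 8 without deep cells 0.11, -0.10. Colonized, all cells (0.27, 0.22): thinned 0.20 for S; equal weight 0.22 for S; without deep cells 0.16, median 0.18, both G2/M; without cluster 8 0.015, 0.28; same mix 0.17, 0.084. In cluster 8 thinned 0.19, -0.054; without deep cells 0.32, -0.39.

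With a Foxp3 UMI over all cells, called higher 0 as reported and 9 with at least 2 Foxp3 UMIs; called lower 2 as reported, 1 by DESeq2, 4 with no filter beyond 1 UMI, 13 thinned, 0 without the library block and 0 with at least 2 Foxp3 UMIs. Without 1 library each, 0 to 4 were higher and 0 to 9 lower. Outside cluster 8, at least 2 Foxp3 UMIs gave 1 higher and no library block 2 lower (4 as reported); without 1 library each, 0 to 1 higher. In cluster 8 thinning gave 2 lower. The fit pairs the 2 sums of each library through the library block. No pairing between the groups was possible because they share fewer than 2 replicate numbers. The shares of cells with phase UMIs moved with every other limit or depth (24 of 24 values). Removing the B and plasma cell marked cells, an alternative chosen after seeing the data, left all 16 ratios in their intervals. The causes were not tested.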

Other observations

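Markers of regulatory and follicular helper T cells in cluster 8 are given here as levels with no test. Sums over a cluster do not show which cells carry a state. Regulatory T cell markers (Foxp3, Il2ra, Ikzf2, Ctla4, Tnfrsf18, Tnfrsf4 and Nrp1) summed to 1863, 1621, 1830 and 1461 CPM in the cluster and to 1286, 1404, 1405 and 1583 CPM outside it. Of the 7 genes only Tnfrsf4 (OX40), a costimulatory receptor that activated T cells also carry, was higher in the cluster in the pooled libraries (848 against 413 CPM). Foxp3 itself was at 40.3 against 93.5 CPM and Ikzf2 at 230 against 334 CPM. Follicular helper markers (Cxcr5, Bcl6, Pdcd1, Il21 and Sostdc1) summed to 222, 129, 192 and 176 CPM in the cluster, with Sostdc1 at 0 in the colonized Foxp3GFP library, and to 149, 111, 178 and 116 CPM outside. In the pooled libraries Cxcr5 (47.5 against 30.8 CPM), Pdcd1 (82.1 against 56.9 CPM) and Il21 (15.1 against 4.27 CPM) were higher in the cluster. Bcl6 was nearly level (7.0 against 6.73 CPM) and Sostdc1 was lower (18.2 against 35.3 CPM).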
